A study of Mus musculus with 8 samples.

Results

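The genes described are 10 members of the Notch pathway, chosen by name from the 35087 rows that carry a gene name: the receptor genes Notch1, Notch2 and Notch3, the ligand genes Jag1 and Jag2, the transcription factor gene Rbpj, and the target genes Hes1, Hey1, Hey2 and Heyl. All 10 had a row in every table. They were measured in granulosa cells, the somatic cells around the oocyte, cut by laser microdissection from ovary cryosections of female mice. Both groups carried Hif1a flox/flox alleles, in which Cre recombinase can remove part of Hif1a, and both were given 100 mg/kg tamoxifen a day for 5 days from 3 weeks of age, with ovaries taken 7 days after the last dose. In the cKO group, with 2 libraries, Foxl2-CreERT2 was present as well, a tamoxifen-activated Cre driven from Foxl2, a gene of granulosa cells. The WT group, with 6 libraries, had no Cre. By genotype label the cKO libraries are a knockdown, and the library names of all 8 samples begin with cKO, also where title and genotype label say WT. Groups follow the titles, and that doubt applies to every comparison. No label links a library to an animal, so p-values measure only the spread between these libraries, which may share animals.

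Notch receptors sit in the membrane and are activated by Jagged and Delta-like ligands on a neighbouring cell. Cleavage by an ADAM protease and then by gamma-secretase frees the intracellular part, which joins RBPJ and Mastermind proteins on DNA and turns on Hes and Hey genes, whose products are transcriptional repressors. In the mouse ovary Notch2 is known as a granulosa cell receptor and Jag1 as a ligand on the oocyte, and signalling between them is needed for the breakdown of germ cell nests and for follicle growth. Notch1, Notch4 and Dll4 are also used by endothelial cells, and Notch3 and Heyl by pericytes and smooth muscle.

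RefSeq promoter sequences (GRCm38.p6, 250 bases before the start) were at hand for 7 members, Notch1, Notch2, Notch3, Jag1, Jag2, Rbpj and Hey2, and not for Hes1, Hey1 and Heyl. They are shown where a motif of RBPJ or of HIF1, the factor whose gene was targeted, was found. The letters TGGGAA, the core that RBPJ recognises, were searched on both strands and occurred in 21.6% of all 32851 promoters. The longer GTGGGAA, which contains that core, occurred in 5.42%. The letters ACGTG, the core of a hypoxia response element, occurred in 16.6%. Hey2, whose values below differ most between the groups, held 1 GTGGGAA match, on the reverse strand, beginning 207 bases before the start. Rbpj, with 2 promoters whose stretches overlap, held TGGGAA at 2 sites. The site shown lay 149 bases before the first start. The other, on the reverse strand, lay 65 bases before the first start, which is 205 bases before the second start. Notch3 held ACGTG on the reverse strand, 186 bases before the start. Bases inside a GENCODE exon were left out of the printed stretches, and capitals mark the match on the strand of the gene.
Hey2, chr10:30842802-30843033, minus strand: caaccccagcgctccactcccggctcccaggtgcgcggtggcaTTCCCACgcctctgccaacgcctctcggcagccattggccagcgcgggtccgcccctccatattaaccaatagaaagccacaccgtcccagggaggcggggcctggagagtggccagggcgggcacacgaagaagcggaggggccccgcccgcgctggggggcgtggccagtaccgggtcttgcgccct
Rbpj, chr5:53590096-53590213, plus strand: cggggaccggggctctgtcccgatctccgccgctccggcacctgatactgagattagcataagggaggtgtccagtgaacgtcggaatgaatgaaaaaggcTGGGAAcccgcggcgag
Notch3, chr17:32166891-32167140, minus strand: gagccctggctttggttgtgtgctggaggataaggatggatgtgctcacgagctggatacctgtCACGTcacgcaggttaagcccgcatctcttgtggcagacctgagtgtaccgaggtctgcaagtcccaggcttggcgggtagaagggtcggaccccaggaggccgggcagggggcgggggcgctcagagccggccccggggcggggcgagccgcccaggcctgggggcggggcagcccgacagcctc
Of the 7 members with a promoter, TGGGAA was found in 2, Rbpj and Hey2, and ACGTG in 2, Notch3 and the second promoter of Rbpj. These matches describe letters only.

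The libraries held from 651656 to 2054739 reads on named genes in cKO and from 1594979 to 4719468 in WT. The smallest, cKO replicate 2, is the least precise, and 3 reads, the limit that no read allows, are 4.08 normalised CPM there and from 0.651 to 1.64 CPM in the other 7. Levels below are normalised read counts, that is estimated reads scaled to library size (CPM) after TMM. The targeted gene Hif1a was at 22.2 CPM in cKO replicate 1 and 13.6 CPM in cKO replicate 2, and between 35.3 and 105.6 CPM in every WT library (log2 fold change -1.84 ± 0.58, SE, edgeR adjusted p = 0.369). All 12 granulosa markers had reads in both groups, with sums of 1765 and 5091 CPM in cKO and from 3644 to 62678 CPM in WT. The mitochondrial genome took 8.87% and 10.5% of reads in cKO and from 1.42% to 3.65% in WT. In bulk material fewer cells of a type and less RNA per cell cannot be told apart.

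No member passed the test between cKO and WT. Of the 9 members tested by edgeR's quasi-likelihood test (Hey1, with 22 reads in all, was filtered out), 0 had an adjusted p under 0.05, where the background over all 15102 genes was also 0%. At an unadjusted p under 0.05 there was 1, Hey2, lower in cKO, beside 8.89% of all genes, and 0 were higher, beside 3.4%. DESeq2 gave an adjusted p to 3 members and called 0, beside 3.98% of the 6881 genes it adjusted, with 1 at an unadjusted p under 0.05, where 1509 of 14997 genes were lower and 700 higher. Limma-voom called 0, with 1 at an unadjusted p under 0.05, where 1028 of 15102 genes were lower and 1458 higher. Without a filter edgeR called 0 of 10 members, beside 1.89% of 25322 genes. By fitted fold change 7 members lay below 0, beside 52.7% of all genes, and 2 above, beside 47.3%. Their median log2 fold change was -0.25 against -0.08 over all genes tested. The count of 7 was 4 with limma-voom and 3 with limma on TPM, and the balance of directions thus differed by method.

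**Figure D1:**
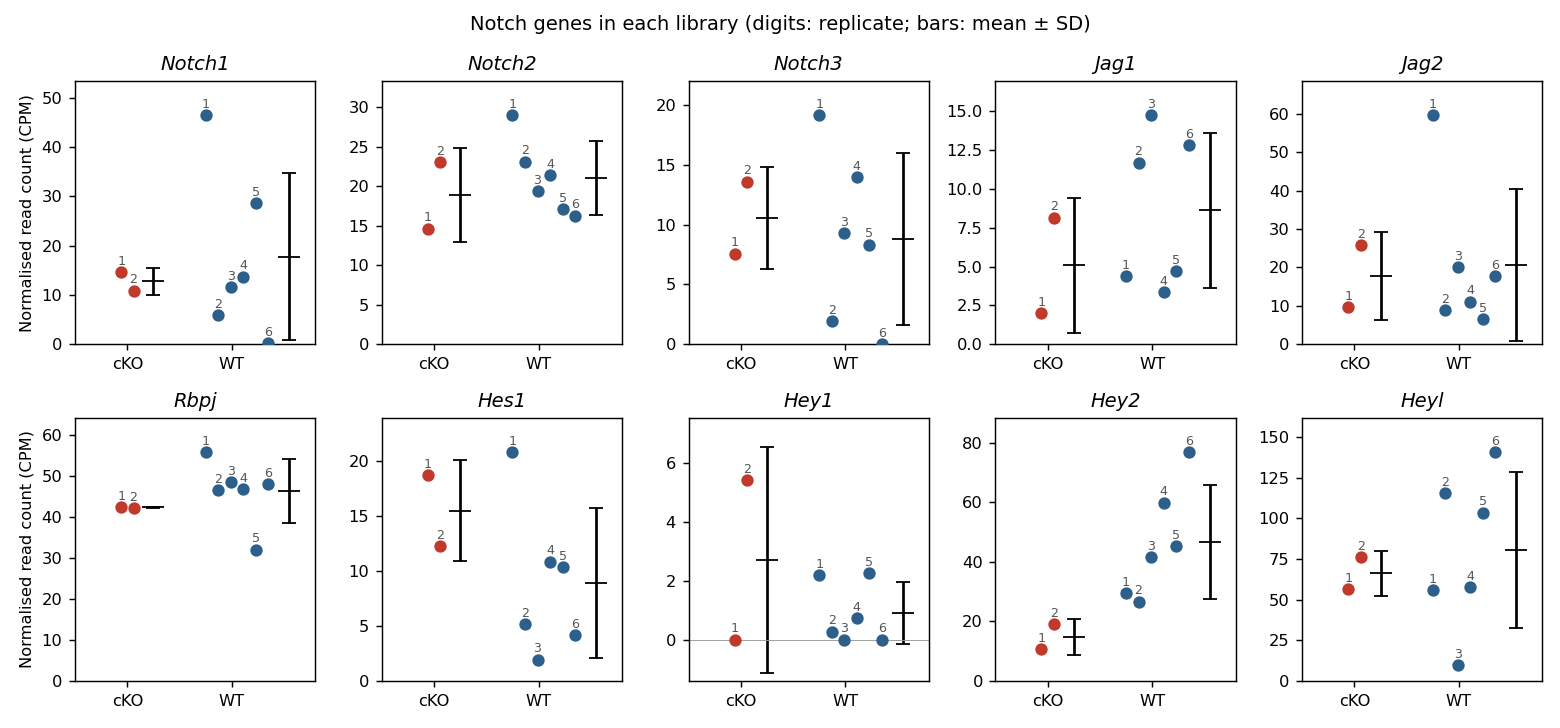
Normalised read count (CPM) of the 10 genes in cKO (red, n = 2) and WT (blue, n = 6) libraries, with replicate numbers and mean ± SD. Hey2 is the gene whose cKO values, 10.6 and 19.0 CPM, both lie below every WT value, the lowest of which is 26.6 CPM.

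For Notch1, Notch2 and Notch3 the SD among WT libraries was larger than the difference between the group means. Notch2 (chromosome 3, 98013527 to 98150361, plus strand) had 14.6 and 23.1 CPM in cKO replicates 1 and 2, against 29.0, 23.1, 19.4, 21.4, 17.1 and 16.3 CPM in WT replicates 1 to 6. All 8 libraries lay within a narrow range and the groups overlapped. The means were 18.9 ± 5.98 CPM over the cKO libraries (SD, n = 2) and 21.04 ± 4.65 CPM over the WT libraries (SD, n = 6), with a fitted log2 difference of -0.17 ± 0.53 (SE, edgeR adjusted p = 0.912).

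Notch1 (chromosome 2, 26457903 to 26516663, minus strand), a receptor widely used in endothelium and blood cells, had 14.6 and 10.9 CPM in cKO, against 46.5, 5.98, 11.6, 13.7, 28.6 and 0.217 CPM in WT replicates 1 to 6. Both cKO libraries fell inside the WT range, whose lowest value is 1 read in WT replicate 6. The log2 fold change was -0.45 ± 1.12 (SE, edgeR adjusted p = 0.894). Notch3 (chromosome 17, 32120820 to 32166852, minus strand), the pericyte and smooth muscle receptor, had 7.57 and 13.6 CPM in cKO, against 19.1, 1.90, 9.31, 13.95, 8.33 and 0 CPM in WT. Again the groups overlapped, with a fitted log2 difference of 0.26 ± 1.22 (SE, edgeR adjusted p = 0.945). Notch4, the receptor gene outside the 10, had 15.6 and 1.36 CPM in cKO, against 12.02, 0.272, 6.21, 3.61, 4.05 and 0 CPM in WT (log2 fold change 1.04 ± 1.39, SE, edgeR adjusted p = 0.777), and its sign rested on cKO replicate 1, as it was -1.68 without it.

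WT replicate 6 had 75 reads of Notch2 but 1 of Notch1, 0 of Notch3 and 0 of Notch4. WT replicate 1, at the other end, was the highest WT library for all 4 receptor genes. Sums of endothelial, of pericyte and smooth muscle, and of stroma markers were also highest in WT replicate 1 and lowest in WT replicate 6 among the WT libraries. The 11 endothelial markers summed to 388 and 303 CPM in cKO, and to 497 CPM in WT replicate 1 and 106 CPM in WT replicate 6, the highest and the lowest of the WT libraries. The 10 pericyte and smooth muscle markers summed to 734 and 204 CPM in cKO and to 651 and 51.4 CPM in the same WT libraries, and the 9 stroma markers to 1403 and 421 CPM in cKO and to 1067 and 37.5 CPM. Between the cKO libraries, replicate 1 had the higher sum in each of these 3 lists, with more Notch1 and Notch4 but less Notch2 and Notch3. Every marker of these 3 lists had reads in both groups. Their part in the receptor values was not tested.

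Of the ligands, Jag1 (chromosome 2, 137081456 to 137116644, minus strand) was read at low depth. It had 2.02 and 8.15 CPM in cKO, or 4 and 6 reads, against 4.37, 11.7, 14.7, 3.37, 4.73 and 12.8 CPM in WT replicates 1 to 6. WT replicates 2, 3 and 6 stood above the other 5 libraries, and the groups overlapped. The fitted log2 fold change, -0.84 ± 1.01 (SE, edgeR adjusted p = 0.745), became -2.11 when cKO replicate 2 was left out and -0.14 when cKO replicate 1 was. The 12 oocyte markers summed to 58.04 and 39.4 CPM in cKO (all but Nobox had reads), to 2024 and 553 CPM in WT replicates 6 and 2, and to 11.2 CPM in WT replicate 3, so WT replicates 2 and 6 were high in both, and WT replicate 3 was high in Jag1 alone. WT replicate 1, with 176 CPM of oocyte markers, was above both cKO libraries in these and had 4.37 CPM of Jag1. The part of oocyte RNA in the Jag1 values was not tested.

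Jag2 (chromosome 12, 112907819 to 112929776, minus strand), the second Jagged ligand, had 9.59 and 25.8 CPM in cKO, against 59.6, 8.97, 20.2, 11.06, 6.53 and 17.8 CPM in WT. WT replicate 1 stood well above all other libraries, which overlapped. The log2 fold change was -0.25 ± 0.83 (SE, edgeR adjusted p = 0.921) and 0.45 without WT replicate 1, so the sign rested on that library. Among Delta-like ligands, Dll4, an endothelial ligand, had 11.6 and 5.43 CPM in cKO (23 and 4 reads) and from 0 to 3.28 CPM in WT (at most 8 reads). Both cKO libraries were above each WT library, as in 6.02% of all genes, and the log2 fold change of 3.08 ± 1.46 did not pass (SE, edgeR adjusted p = 0.410). The endothelial marker sums of both cKO libraries, given above, exceeded those of 5 of 6 WT libraries, all but WT replicate 1, and their part in the Dll4 values was not tested. Dll3, described mainly in the embryo, had 0 and 8.15 CPM in cKO and from 1.16 to 9.98 CPM in WT (log2 fold change -0.38 ± 1.41, SE, edgeR adjusted p = 0.928). Its sign turned to 0.68 without cKO replicate 1, the library with no read. Dll1 and Dlk1 had 12 and 9 reads in all and were not tested.

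Rbpj (chromosome 5, 53466152 to 53657362, plus strand), the DNA-binding partner of all Notch receptors, varied least among the members. It had 42.4 and 42.1 CPM in cKO, against 55.7, 46.5, 48.5, 46.6, 32.0 and 47.96 CPM in WT. Both cKO libraries lay below all WT libraries except WT replicate 5. The means were 42.3 ± 0.199 CPM over the cKO libraries (SD, n = 2) and 46.2 ± 7.77 CPM over the WT libraries (SD, n = 6), with a fitted log2 difference of -0.13 ± 0.41 (SE, edgeR adjusted p = 0.914). Its fitted biological coefficient of variation was 0.370, at percentile 2.32 of all genes tested, against percentiles of 25.7 for Notch2 and 78.0 for Notch3. Pseudogene copies drew almost no reads, with 1 on Rbpj-ps1 and 0 on Rbpj-ps3, although estimated counts of Rbpj were not whole, so a part of its reads was shared out by the authors' counting.

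Hey2 (chromosome 10, 30832359 to 30842801, minus strand), a repressor known as a Notch target in heart and vessels, had 10.6 and 19.0 CPM in cKO (21 and 14 reads), against 29.5, 26.6, 41.5, 59.9, 45.3 and 76.8 CPM in WT replicates 1 to 6. Every WT library was above both cKO libraries, as in 6.41% of all genes. The means were 14.8 ± 5.95 CPM over the cKO libraries (SD, n = 2) and 46.6 ± 19.02 CPM over the WT libraries (SD, n = 6), with a log2 fold change of -1.69 ± 0.58 (SE, unadjusted p = 0.0110, edgeR adjusted p = 0.369). In DESeq2 the adjusted p was 0.102. The 95% counting interval (exact, Clopper-Pearson) was 10.4 to 31.9 CPM in cKO replicate 2, which reaches WT replicates 1 and 2. On the deposited TPM scale the groups overlapped, with 3.50 and 8.77 TPM in cKO and from 7.98 to 30.8 TPM in WT.

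The sums of the 12 granulosa markers were 5091 and 1765 CPM in the cKO libraries. In WT they were 3644 CPM in replicate 1, 8357 CPM in replicate 2 and at least 20844 CPM in replicates 3 to 6, the libraries with 41.5 CPM of Hey2 or more. WT replicates 3 to 6 thus had both the highest sums and the highest Hey2 values. The order was not the same throughout. WT replicate 1 had a lower sum than cKO replicate 1 and more Hey2, and the highest sum was in WT replicate 4 while Hey2 was highest in WT replicate 6. Most of each WT sum from replicate 2 on was Inha, an inhibin subunit gene, with 2566 and 648 CPM in the cKO libraries and from 1372 to 42388 CPM in WT. Inhba, the gene of another inhibin subunit, had 349 and 61.1 CPM in the cKO libraries, at most 93.0 CPM in WT replicates 1 and 2, and at least 2238 CPM in WT replicates 3 to 6. Hsd17b1, Gja1, Fst, Cyp19a1, Fshr and Nr5a2 were also higher in each of WT replicates 3 to 6 than in WT replicates 1 and 2. Hsd17b1 was at 225 and 105 CPM in the cKO libraries. In WT it was at 212 and 347 CPM in replicates 1 and 2 and at least 852 CPM in replicates 3 to 6. For Fshr the gap was small, with 45.4 CPM in WT replicate 2 and 46.2 CPM in WT replicate 6. Amh, Amhr2, Foxl2 and Kitl did not follow this order. Amh, the anti-Mullerian hormone gene of small growing follicles, was at 607 and 223 CPM in the cKO libraries. In WT it was at 762 CPM or more in replicates 1 and 2 and at 175 CPM or less in replicates 3 to 6. Amhr2, its receptor gene, was at 245 and 113 CPM in the cKO libraries and between 131 and 352 CPM in WT. Among the libraries numbered 1 and 2 alone the log2 fold change of Hey2 was -0.85 (edgeR, unadjusted p = 0.269). The part of follicle state or granulosa content in the Hey2 difference was not tested.

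Heyl (chromosome 4, 123233556 to 123249875, plus strand), a Hey family repressor, was the member with most reads, 2070 in all. It had 56.5 and 76.1 CPM in cKO, against 55.7, 115.5, 9.70, 57.9, 103.6 and 140.9 CPM in WT. The cKO libraries lay in the middle of the WT range, and WT replicate 3 stood far below the others. The log2 fold change was -0.29 ± 0.69 (SE, edgeR adjusted p = 0.889), and it was 0.09 without WT replicate 6. WT replicate 6, highest for Heyl, had the lowest sum of pericyte and smooth muscle markers. WT replicate 5, with 103.6 CPM of Heyl, had 562 CPM of these markers. Their part in the Heyl values was not tested.

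Hes1 (chromosome 16, 30064384 to 30067796, plus strand), a repressor that also turns off its own gene and that other pathways induce too, had 18.7 and 12.2 CPM in cKO (37 and 9 reads), against 20.8, 5.17, 1.94, 10.8, 10.4 and 4.12 CPM in WT. Both cKO libraries were above 5 of 6 WT libraries, and WT replicate 1 was above both. The means were 15.5 ± 4.56 CPM over the cKO libraries (SD, n = 2) and 8.86 ± 6.81 CPM over the WT libraries (SD, n = 6), and the fitted log2 difference was 0.82 ± 0.84 (SE, edgeR adjusted p = 0.693). It became 1.26 without WT replicate 1, 0.42 without cKO replicate 1 and 0.30 among the libraries numbered 1 and 2. Hey1 (chromosome 3, 8663359 to 8667256, minus strand), the third Hey gene, had 0 and 4 reads in cKO and 4, 1, 0, 3, 10 and 0 reads in WT replicates 1 to 6. At this depth no difference was detectable, and the exact 95% interval in cKO replicate 2 ran from 1.48 to 13.9 CPM.

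Hes6 and Hes7, further genes of the Hes family, lay on opposite sides. Hes6, which encodes an inhibitor of HES1 rather than a usual Notch target, had 7.57 and 0 CPM in cKO, against 2.19, 13.6, 42.3, 36.8, 21.2 and 39.1 CPM in WT (log2 fold change -2.54 ± 1.11, SE, edgeR adjusted p = 0.386). WT replicate 1 lay inside the cKO range. Without cKO replicate 1 no cKO read is left, and the fitted -9.35 is then no measured size. Hes7, the somite clock gene, had 9.08 and 13.6 CPM in cKO and from 0.388 to 8.43 CPM in WT. Its groups did not overlap, as in 6.02% of all genes (log2 fold change 1.61 ± 1.02, SE, edgeR adjusted p = 0.521). Hes5 had 2 reads in all and was not tested.

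**Figure D2:**
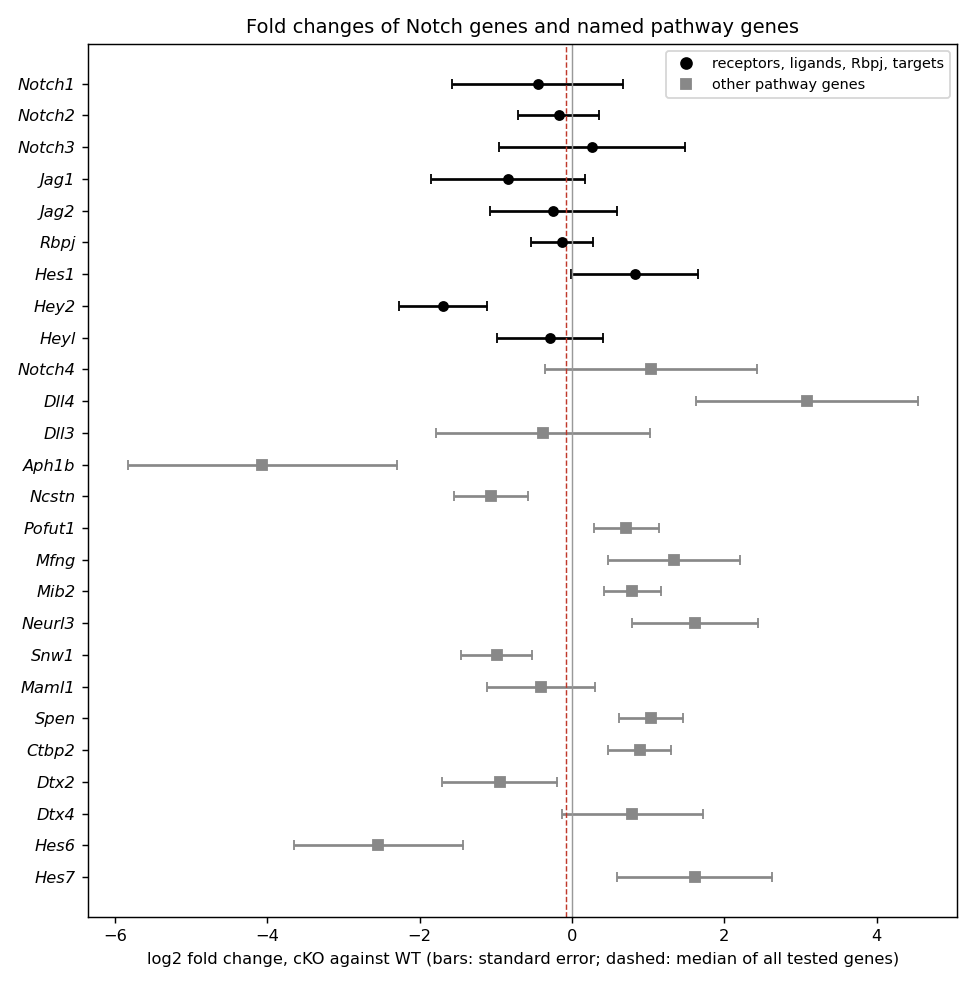
Log2 fold change of cKO against WT with its standard error for the 9 genes tested (circles) and 17 other pathway genes (squares). The dashed line is the median of all genes tested, -0.08. Hey2, at -1.69, is farthest from it among the circles, and no gene shown passed the adjusted threshold.

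Of the wider pathway, 59 further genes were listed by role and 53 were tested. None passed over all genes (0 called by edgeR, and 0 by DESeq2 or limma-voom, over the 62 tested with the members). DESeq2 gave an adjusted p to only 34 of these 62, and the rest could not be called by it. Of the 53, at an unadjusted p under 0.05, edgeR had 3 lower, beside 8.89% of all genes, and 1 higher, beside 3.4%. The medians were -0.05 for these 53 genes and -0.08 for all genes. Groups did not overlap for 4 genes lower in cKO and 4 higher among the 62 tested with the members. The shares over all genes were 6.41% and 6.02%. Proteases and gamma-secretase subunits, which release the intracellular part, had 9 of 10 fitted values below 0, beside 52.7% of all genes, and a median of -0.57, with no test of the list. Ncstn, the nicastrin subunit, had 58.5 and 19.0 CPM in cKO, against from 58.5 to 101.6 CPM in WT (log2 fold change -1.06 ± 0.49, SE, edgeR adjusted p = 0.404), or -0.57 without cKO replicate 2. Aph1b, another subunit, rested on 0 and 1 read in cKO, against 4, 6, 37, 65, 65 and 10 reads in WT replicates 1 to 6. Its groups did not overlap, but only by 1.36 CPM in cKO replicate 2 against 1.63 CPM in WT replicate 2. Both lie below the 4.08 CPM that 3 reads make in cKO replicate 2. The fitted -4.07 (edgeR adjusted p = 0.386) is an uncertain size.

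Of 4 tested genes for enzymes that glycosylate the receptors, 3 had fitted values above 0, beside 47.3% of all genes, and 1 below, with a median of 0.48. Pofut1, which adds the fucose that Notch needs, had 64.6 and 53.0 CPM in cKO and from 25.1 to 50.02 CPM in WT, with no overlap (log2 fold change 0.72 ± 0.42, SE, edgeR adjusted p = 0.495). Mfng had 34.3 and 2.72 CPM in cKO and from 1.94 to 13.02 CPM in WT, and its value of 1.34 turned to -1.51 without cKO replicate 1. Lfng, a fringe gene of the ovary and somites, had 4 reads in all. Among the ligases that act on ligands, Mib2 had 135 and 100.5 CPM in cKO and from 53.8 to 89.2 CPM in WT, with no overlap (log2 fold change 0.79 ± 0.38, SE, edgeR adjusted p = 0.413). Neurl3 had 9.08 and 55.7 CPM in cKO and from 3.81 to 29.5 CPM in WT, and its value of 1.62 turned to -0.27 without cKO replicate 2.

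Of 7 nuclear complex genes other than Rbpj, 5 had fitted values below 0, beside 52.7% of all genes, with a median of -0.18. Snw1, which encodes the coactivator SKIP, had 32.3 and 21.7 CPM in cKO and from 34.5 to 71.8 CPM in WT, with no overlap (log2 fold change -0.99 ± 0.47, SE, edgeR adjusted p = 0.409). Maml1, a Mastermind gene, was at -0.40 ± 0.71. Of 11 corepressor genes, 8 had fitted values above 0, beside 47.3% of all genes, with a median of 0.35, and the lists were not tested against each other. Spen, which encodes the RBPJ corepressor also called SHARP or MINT, had 164 and 97.8 CPM in cKO and from 45.7 to 110.9 CPM in WT (log2 fold change 1.04 ± 0.42, SE, edgeR adjusted p = 0.378). WT replicate 1 overlapped, and the other 5 WT libraries lay below both cKO libraries. Ctbp2 was at 0.89 ± 0.42 (SE, edgeR adjusted p = 0.406). Of 9 genes of inhibition and turnover, 4 were below 0, with Dtx2 at -0.95 ± 0.76 and Dtx4 at 0.79 ± 0.93.

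Levels of different genes were compared as normalised CPM per kilobase of the longest GENCODE M21 transcript. By the median of the 6 WT libraries the order was Heyl (17.8 CPM per kb), Hey2 (17.01), Rbpj (8.62), Hes1 (5.29), Jag2 (2.83), Notch2 (1.94), Jag1 (1.46), Notch1 (1.34), Notch3 (1.10) and Hey1 (0.205). Hey2 exceeded Rbpj in 0 of 2 cKO libraries and in 6 of 6 WT libraries. On deposited TPM Rbpj came first, with a WT median of 19.7 TPM, before Hey2 (18.3) and Heyl (15.1), and it exceeded Hey2 in 2 of 2 cKO and 3 of 6 WT libraries. The implied lengths of Rbpj, from 1194 to 5185 bases, lay below the 5485 bases of its longest transcript, so its rank differed with the length used. No other neighbours by CPM per kb kept 1 order in all 6 WT libraries, so their ranks do not differ beyond the spread. By these medians Heyl, Hey2, Rbpj and Hes1 stood above the receptors and ligands, and Hey1 below them.

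The make-up of each class was then taken as a share per length within a library, which does not depend on scaling between libraries. On the deposited TPM, Notch2 made up 13.5% and 5.41% of the 4 receptors in cKO, against 4.91%, 54.9%, 33.4%, 23.5%, 25.1% and 58.7% in WT replicates 1 to 6. WT replicate 1 was as low as the cKO libraries. The group means of 9.43% ± 5.69 (SD, n = 2) and 33.4% ± 20.4 (SD, n = 6) were set against each other by an exact two-sided permutation test, which did not pass (p = 0.179 over 28 splits, where the smallest possible is 0.0357). With 1 fixed length per gene the shares were 22.3% and 41.9% in cKO and from 23.3% to 98.5% in WT (exact permutation p = 0.643). Jag1 made up 4.97% and 4.82% of 5 ligands in cKO and from 2.87% to 25.9% in WT by TPM (exact permutation p = 0.179), where WT replicate 1 was the lowest. By fixed length the Jag1 shares were 6.40% and 13.0% in cKO and from 5.51% to 37.4% in WT (exact permutation p = 0.321). By the deposited lengths the difference was -3.94 percentage points, against -11.4 by TPM. Hes1 made up 31.0% and 42.1% of Hes1, Hey1, Hey2 and Heyl in cKO and from 6.78% to 38.1% in WT by TPM (exact permutation p = 0.107). For Jag1 and Hes1 on TPM, WT replicate 1 was the library that kept the groups from separating. Leaving it out gave differences of -14.0 and 22.3 percentage points with an exact permutation p of 0.0476 each, the smallest that 21 splits allow, which follows from removing that library and is no independent test. By fixed length the Hes1 shares were 43.4% and 23.9% in cKO and from 4.39% to 36.4% in WT (exact permutation p = 0.0714). Adjusted over the 3 shares by Benjamini-Hochberg, each exact permutation p on TPM was 0.179.

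**Figure D3:**
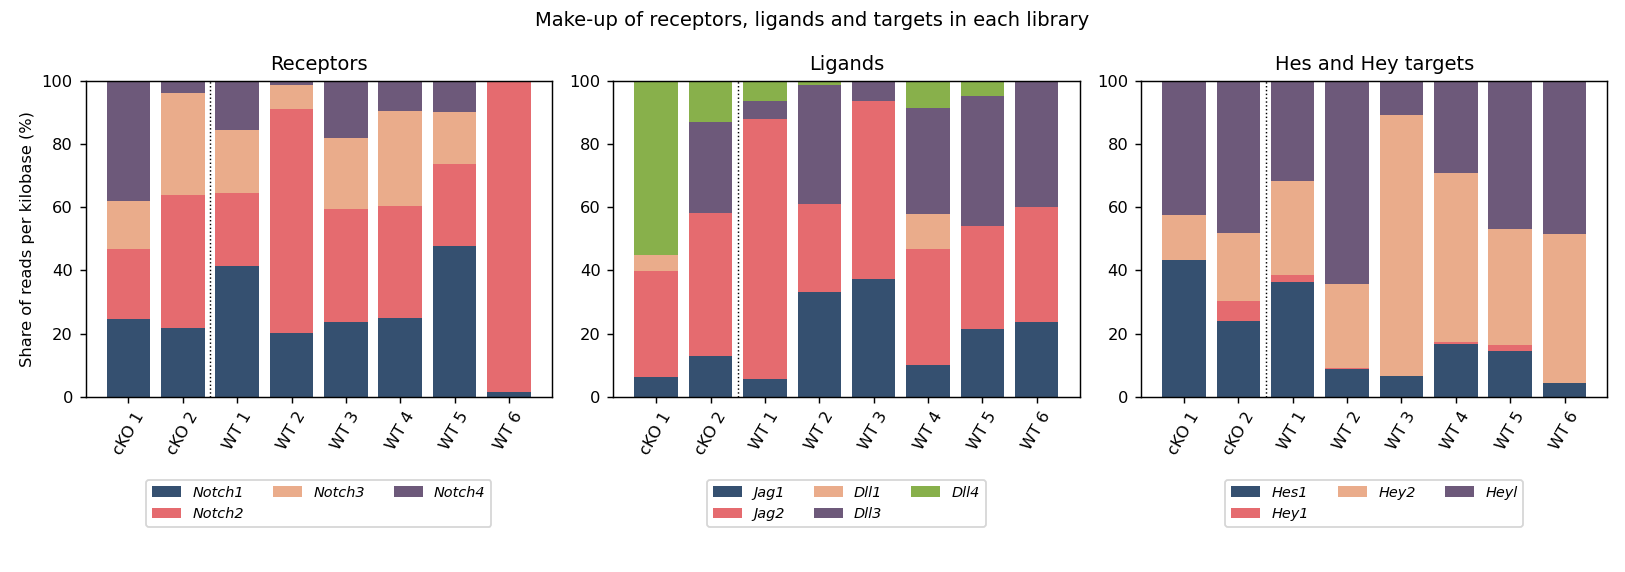
Share of reads per kilobase of the longest transcript (%) within receptors, ligands and Hes and Hey targets, 1 bar per library, with cKO left of the dotted line and WT right of it. Hey2 takes 14.2% and 21.4% of the targets in cKO and from 26.4% to 82.5% in WT, and Dll4 takes 55.1% of the ligands in cKO replicate 1.

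The deposited TPM of several members departed from their read counts, and the transcript length that the TPM imply varied between libraries. Notch1 had 34.5 TPM in cKO replicate 2 and 1.20 TPM in WT replicate 4, although the read counts were close, at 10.9 and 13.7 CPM. The effective length implied by the TPM was 318 bases in cKO replicate 2 and 9059 bases in WT replicate 4, where the longest Notch1 transcript has 9488 bases and GENCODE M21 lists 11 transcripts. Over all libraries with a read the implied length ran from 195 to 9059 bases for Notch1, from 1475 to 4913 for Jag2, from 1194 to 5185 for Rbpj and from 415 to 1265 for Hes1. It was nearly constant for Notch3 (7810 to 7851 bases) and Hey2 (2189 to 2312 bases). The fitted log2 difference of Notch1, Jag2, Rbpj and Heyl was above 0 on log2(TPM + 1) and below 0 in edgeR on counts, and some other fits on counts also put it above 0. The fold changes above rest on read counts, while the shares on TPM hold these varying lengths.

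**Figure D4:**
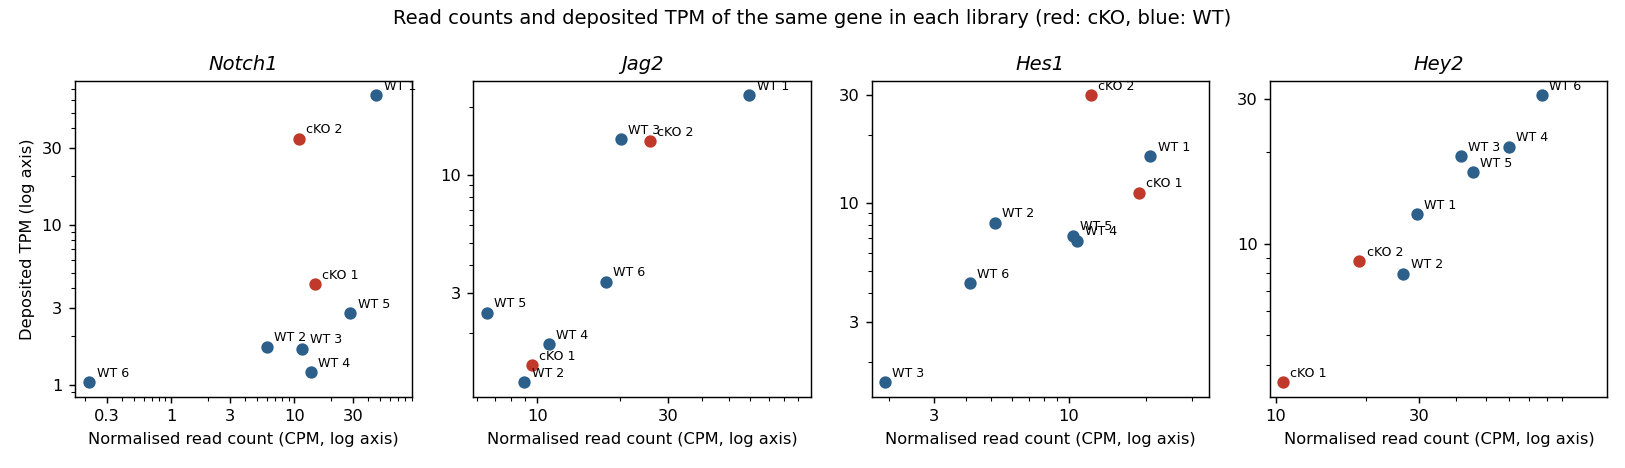
Deposited TPM against normalised read count (CPM) of Notch1, Jag2, Hes1 and Hey2 in each library, both axes logarithmic (cKO red, WT blue). For Notch1, cKO replicate 2 lies at 34.5 TPM and 10.9 CPM, while WT replicate 4 lies at 1.20 TPM and 13.7 CPM.

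The pattern of a gene over the 8 libraries was compared by the root mean square difference of log2(CPM + 1) after centring on the mean of the gene, over 14003 tested genes after leaving out names that are Gm or Rik numbers. The nearest to Notch2 were Zfp512b (0.15), Dennd5b (0.16) and L3mbtl3 (0.16), where the median over all genes was 0.86. Rbpj was at rank 36 (0.25), and the other members lay between rank 5386 (Jag2) and rank 12638 (Notch1). Genes of little variation are all near each other by this measure. The nearest to Hes1 were Sept8 (0.24), Begain (0.32) and Plcxd3 (0.36), and among members Notch2 and Rbpj ranked 2085 and 2920 and Hey2 11150. All libraries are shared between the genes compared.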

How the data were processed

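RNA of 8 microdissected granulosa cell samples was reverse transcribed, amplified by a Smart-seq2 protocol and turned into Tn5 libraries, per the labels' protocols. This does not mark strand, and Notch1, Notch2 and Notch3 exons overlap 4 other annotated genes that are not among the named rows. The authors deposited per gene an estimated count of reads, a TPM value and a length. HISAT2, Salmon and mm10 are named in the submitters' processing notes. Versions and the annotation are not given in the sources used here. Coordinates are from GENCODE M21 (GRCm38, the assembly of mm10), which held 34130 of 35087 named rows. The 1548 rows with a transcript identifier only (0.435% to 0.739% of reads) entered neither library sizes nor tests.

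Estimated counts were rounded, filtered with filterByExpr (minimum count 10, minimum total 15) to 15102 genes, TMM-scaled and tested with edgeR 4.0.16 (glmQLFit, glmQLFTest, group only) in R 4.3.3, with Benjamini-Hochberg adjustment over all genes and a threshold of 0.05. Standard errors follow from F and the fold change. Shares used an exact permutation test. Effective lengths were derived from TPM and counts, scaled on genes with 1 transcript. Intervals (95%) and limits cover counting error only.

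All 10 members are named, and of the other pathway genes the 2 with the smallest p per role. Members, lists, tests and alternatives were chosen with earlier results of these data known. Genes named besides (Inha, Inhba, Amh, Amhr2, Hsd17b1, Gja1, Fst, Cyp19a1, Fshr, Foxl2, Nr5a2, Kitl, Dll1, Dlk1, Lfng, Hes5, Rbpj-ps1, Rbpj-ps3) were picked after their values were seen. Alternatives were DESeq2 1.42.0 as size factors or test, no scaling, no filter or a filter of 10 reads in 6 libraries, limma 3.58.1 (voom, or log2(TPM + 1)), a replicate block, detected genes as a covariate, no mitochondrial genome genes, fewer libraries, and for shares other lengths or a pseudocount of 1 TPM. The fixed length was added after seeing the data.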

Additional observations from a re-analysis of the deposited data

Results flagged for a closer look

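Of 30 sets of 6 WT values examined for a library far from the rest, 3 had one by Dixon's ratio of gap to range (critical value 0.625). The nominal rate of 5% assumes independent, normally distributed values. These sets share the same libraries, so the count is not read as an excess. In each of the 3 sets the library was WT replicate 1. Jag2 had 59.6 CPM there, against 20.2 CPM in the next highest WT library, and 9.59 and 25.8 CPM in cKO. Neurl3, an E3 ligase gene, had 29.5 CPM there, against 11.5 CPM in the next, and 9.08 and 55.7 CPM in cKO. Spen had 110.9 CPM there, against 68.3 CPM in the next, and 164 and 97.8 CPM in cKO.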

How the results depend on the processing

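No member and no pathway gene passed the adjusted threshold in any of the 20 fits run. In the DESeq2 fit only 34 of the 62 pathway genes, members included, had an adjusted p. Over all genes 478 were called with no filter, 274 with DESeq2, 5 with limma on log2(TPM + 1), 1 with the replicate block, and from 0 to 1 when 1 library was left out. Scaling moved the median of all fitted log2 fold changes, which was -0.08 under TMM and 0.05 under size factors of DESeq2. Members below 0 numbered 4 of 8 with the filter of 10 reads in 6 libraries, 4 of 9 with limma-voom, 3 of 9 on TPM, and from 5 to 9 with 1 library left out. Hey2, Hes1 and Jag1 kept their sign in all alternatives with a value, Hey2 between -2.21 and -0.85, Hes1 between 0.30 and 2.95 and Jag1 between -3.56 and -0.14. Signs turned with limma-voom for Notch1 (0.40), Jag2 (0.27) and Heyl (0.032), and on TPM for Notch1 (1.61), Jag2 (0.10), Rbpj (0.25) and Heyl (0.93). They turned with the stricter filter for Notch2 (0.050) and Rbpj (0.068), and with detected genes as a covariate for Notch1 (1.90) and Maml1 (0.52). Maml1 was at 1.17 in the libraries numbered 1 and 2. With 1 library left out the range was -0.75 to 0.11 for Notch1, -0.58 to 0.080 for Notch2, -0.29 to 0.66 for Notch3, -1.16 to 0.45 for Jag2, -0.58 to 0.086 for Heyl, -1.68 to 1.78 for Notch4, -7.03 to 0.68 for Dll3, -1.51 to 2.13 for Mfng and -0.27 to 2.38 for Neurl3. The cKO minus WT difference in share was then from -14.0 to -9.42 percentage points for Jag1 and from 12.8 to 23.9 for Hes1. In the libraries numbered 1 and 2 it was -6.50 for Jag1 and 5.43 for Hes1. For Notch2, at -24.0 by TPM, it was -12.4 by the deposited lengths and -14.996 with a pseudocount of 1 TPM. The causes were not tested. No label links the cKO and WT libraries of the same number. Their deviations from group means correlated at -0.296 and -0.166. With 2 cKO libraries these deviations mirror each other, so the correlations cannot tell whether libraries are paired. With the replicate block Hey2 was at -0.99, Maml1 at 1.07 and Dtx4 at -0.042. With 2 cKO libraries, 1 of them of 651656 reads, changes of members with few reads there could not be resolved.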
